A study of Homo sapiens with 10 samples.

Results

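Binding of Smad3, Smad4 and TTF-1 was described at 7 genes of the epithelial-mesenchymal transition: SNAI1, SNAI2, ZEB1, ZEB2, HMGA2, CDH1 and VIM. Each gene was represented by a set window of hg18, and a called peak belonged to a gene if it shared at least 1 bp with its window. The windows were chromosome 20, 48.00 to 48.07 Mb for SNAI1, chromosome 8, 49.95 to 50.04 Mb for SNAI2, and chromosome 10, 31.61 to 31.89 Mb for ZEB1. The others were chromosome 2, 144.82 to 145.03 Mb for ZEB2, chromosome 12, 64.47 to 64.68 Mb for HMGA2, chromosome 16, 67.29 to 67.46 Mb for CDH1, and chromosome 10, 17.27 to 17.35 Mb for VIM. Together they cover 1110 kb and held 114 of the 79601 peaks in the 7 called lists. No annotation of hg18 was used, so peaks are given by position within the window, without exon, intron or distance to a gene's start.

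The lists come from chromatin immunoprecipitation with sequencing (ChIP-seq) in 2 lung adenocarcinoma cell lines, H441, which is labelled TTF-1 positive, and A549, which is labelled TTF-1 negative. In H441, Smad3 and Smad4 were each mapped after a control siRNA (siControl) and after TTF-1 had been depleted with an siRNA (siTTF-1). TTF-1 itself was mapped in H441 cells titled 0 h and 1.5 h. Smad3 was also mapped in A549. The label for every library, the TTF-1 library titled 0 h included, gives treatment with 1 ng/ml TGF-β3 for 1.5 h. No siRNA is named for TTF-1, which was not mapped in depleted cells. With 1 library per condition, differences between lists cannot be set against replicate spread, and no test was made. Intervals on shares are exact Clopper-Pearson 95% intervals and cover counting error only, since peaks are not replicates. The lists hold no read counts, so the depth of the libraries is unknown. A Smad3 peak of siControl cells is called kept if it overlaps a siTTF-1 Smad3 peak and lost if it does not, and a siTTF-1 peak without a siControl partner is called gained. A position without a peak was not called, which does not show that it was unbound.

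The epithelial-mesenchymal transition is the process in which epithelial cells give up cell-cell adhesion and take on a migratory, mesenchymal state. TGF-β is one of its best-known inducers, and it acts through Smad3, which enters the nucleus with Smad4. The transition is driven by repressors that bind E-box sequences: the zinc finger proteins SNAI1 (Snail) and SNAI2 (Slug) and the zinc finger homeobox proteins ZEB1 and ZEB2. Their classical target is CDH1, the gene of the adhesion molecule E-cadherin. HMGA2 is a chromatin protein that is known to raise SNAI1 expression in response to TGF-β. VIM encodes vimentin, the intermediate filament of mesenchymal cells. TTF-1 (NKX2-1) is the lineage factor of lung epithelium.

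Smad3 was called at all 7 genes after siTTF-1 and at 5 of them in siControl cells, where SNAI2 and ZEB2 had no peak. Of windows as long as those of SNAI2 and ZEB2, laid end to end over the genome, 16.8% and 30.8% held a siControl Smad3 peak. The shares with a siTTF-1 Smad3 peak were 23.8% and 40.6%, so a window without a Smad3 peak is common in either list. The windows held 18 of the 8941 Smad3 siControl peaks and 24 of the 14145 Smad3 siTTF-1 peaks. They held 40 of the 31083 TTF-1 0 h peaks and 30 of the 21291 TTF-1 1.5 h peaks. SNAI2 and VIM had no TTF-1 peak at either time. Of windows of their lengths over the genome, 40.3% and 38.0% held a TTF-1 0 h peak. For TTF-1 1.5 h these shares were 32.4% and 30.2%, so a window without TTF-1 is common. The Smad4 siTTF-1 list had 1 peak in the windows, at ZEB2, the A549 Smad3 list had 1, at VIM, and the Smad4 siControl list, which has 1 peak in all, had none. CDH1 and HMGA2 carried most of the binding, with 13 of the 18 siControl and 14 of the 24 siTTF-1 Smad3 peaks.

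**Figure D1:**
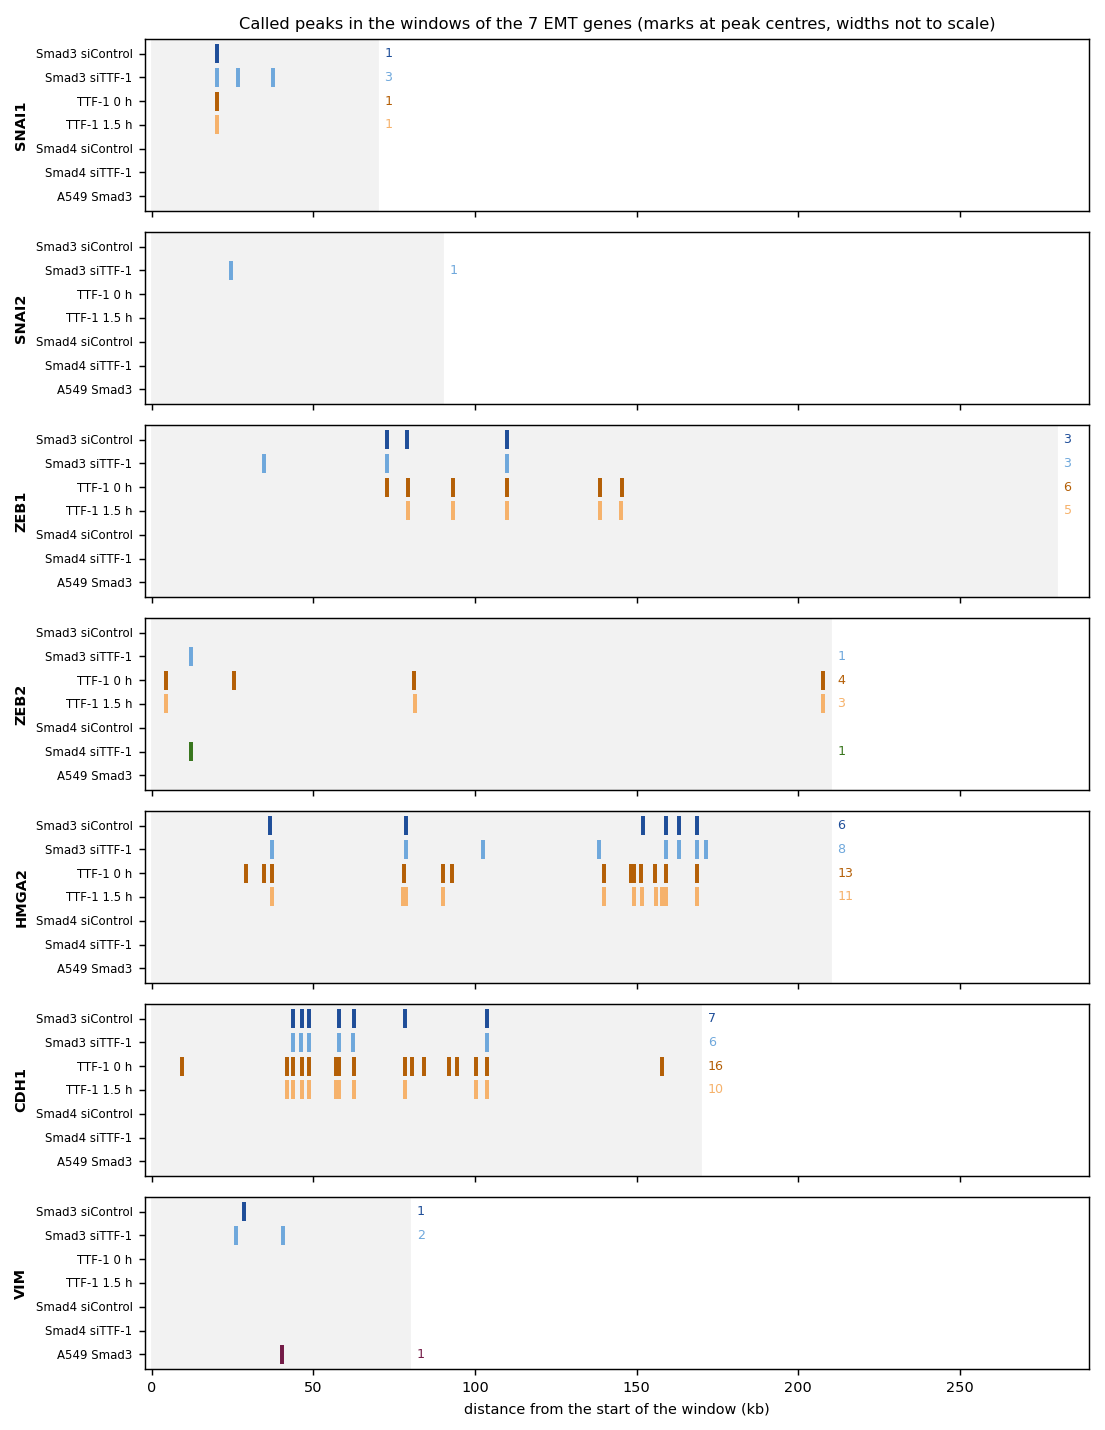
Peak centres of the 7 called lists in each window, against the distance from the start of the window in kb; the grey area is the window, and the number at its right edge counts the peaks of each list. TTF-1 and Smad3 marks line up at CDH1 and in part at HMGA2 and ZEB1, while the SNAI2 and VIM windows hold no TTF-1 mark.

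Peaks were denser in the windows than over the genome. Smad3 siControl peaks numbered 1.62 per 100 kb in the windows and 0.295 over the whole list, a ratio of 5.49. The ratio was 4.63 for Smad3 siTTF-1, 3.51 for TTF-1 0 h and 3.85 for TTF-1 1.5 h. With each list shortened to its first 8000 peaks, the ratios were 5.12, 5.46, 5.12 and 5.12 in the same order of lists. The ranking of the ratios at full length was therefore not seen in lists of equal length. In the Smad3 siControl list and both TTF-1 lists, the excess over the genome came mainly from 2 genes. CDH1 had 4.12 siControl Smad3 peaks per 100 kb and HMGA2 2.86, whereas SNAI1 had 1.43, VIM 1.25 and ZEB1 1.07. After siTTF-1 the densest Smad3 window was that of SNAI1, with 4.29 peaks per 100 kb, and 3.12% of windows of its length held as many or more. HMGA2 had 3.81, CDH1 3.53 and VIM 2.5 in this list. When windows as long as that of CDH1 were laid end to end over the genome, 0.409% of them held 7 or more siControl Smad3 peaks, and 0.140% held 16 or more TTF-1 0 h peaks. For windows as long as that of HMGA2, 1.20% held 6 or more siControl Smad3 peaks and 0.935% held 13 or more TTF-1 0 h peaks. The single SNAI2 and ZEB2 Smad3 peaks were not unusual in this sense, since 23.8% and 40.6% of windows of those lengths held at least 1 siTTF-1 Smad3 peak. These shares describe the lists and are not tests. The 200 kb on either side of each window were also denser than the genome at several genes. At CDH1 and HMGA2 the siControl Smad3 density in these flanks was 1.25 and 1.75 per 100 kb, below that of the windows. At ZEB1 the flanks had 1.75 siControl peaks per 100 kb, above the window's 1.07, and at VIM they had 1.25, equal to the window. After siTTF-1 the flanks of SNAI2 had 1.5 Smad3 peaks per 100 kb against 1.11 in the window, and those of ZEB2 had 1.0 against 0.476.

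**Figure D2:**
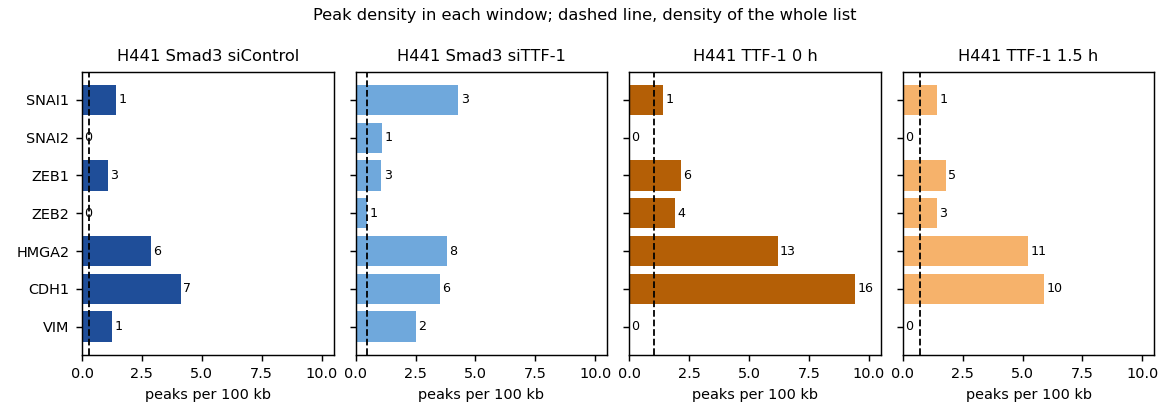
Peaks per 100 kb in each gene's window for the 4 longest lists, with the number of peaks beside each bar and the density of the whole list as a dashed line. CDH1 and HMGA2 have the longest bars in both TTF-1 lists and in the Smad3 siControl list, where CDH1 reaches 4.12 peaks per 100 kb. In the Smad3 siTTF-1 list, the longest bar is that of SNAI1, with 3 peaks in a window of 70 kb.

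CDH1, the gene that the repressors of the transition silence, was the most densely bound of the 7 by TTF-1 and by Smad3 in siControl cells. Its window held 7 Smad3 peaks in siControl cells and 6 after siTTF-1, 16 TTF-1 peaks at 0 h and 10 at 1.5 h. No Smad4 or A549 Smad3 peak was called there. All 7 siControl Smad3 peaks overlapped a TTF-1 1.5 h peak (100%, 59.0 to 100), against 82.2% of the whole list, inside this interval. Of the 6 siTTF-1 peaks, all overlapped both a siControl Smad3 peak and a TTF-1 1.5 h peak, so no Smad3 site was gained at CDH1. The TTF-1 share of these 6 was 100% (54.07 to 100), against 54.11% of the whole siTTF-1 list, of which 49.1% was gained. The Smad3 sites lay within 60.1 kb of one another, between 67333351 and 67394099.

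The leading CDH1 site, the one with the lowest peak numbers in most lists, was at 67347501 to 67348249 in both Smad3 lists. It was number 493 of the siControl list and number 959 of the siTTF-1 list, and the overlapping TTF-1 peaks were number 79 at 0 h and number 134 at 1.5 h. What the deposited peak number stands for is not stated in the labels or files, and it is used only as an order. Numbers from lists of different length are therefore not compared directly. The siTTF-1 list had its lowest number in this window at another site, 67393251 to 67394099, number 371, which was number 1413 (67393551 to 67394099) in siControl cells. The 1 siControl peak not called after siTTF-1 was the narrowest of the 7, at 67368251 to 67368599 (349 bp, number 8001). TTF-1 was called there at both times, as number 4455 and number 2811.

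TTF-1 peaks at CDH1 were shared between the times to about the same extent as in the lists as a whole. Of the 16 peaks at 0 h, 10 were called again at 1.5 h (62.5%, 35.4 to 84.8), against 65.3% of all 0 h peaks. All 10 of the 1.5 h peaks had been called at 0 h, against 95.8% of that list, which is the shorter of the pair. Smad3 was at none of the 6 that were missing at 1.5 h, and 4 of these lay between 67370151 and 67384749. A pair of TTF-1 peaks stood side by side at the leading site. The smaller of them (67346751 to 67347349 at 0 h) had no Smad3 peak, and it was number 12657 at 0 h and number 20676 at 1.5 h.

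VIM, the mesenchymal marker, was the only gene of the 7 with Smad3 peaks in both cell lines. In A549 cells 1 broad peak of 1199 bp was called at 17309851 to 17311049, number 2168 of 2535. After siTTF-1, H441 cells had a Smad3 peak of 399 bp inside it, at 17310351 to 17310749, number 13373 of 14145, and a second of 299 bp at 17296051 to 17296349, number 13351. Neither was called in siControl cells. The 1 siControl peak, of 299 bp at 17298401 to 17298699 (number 8535 of 8941), was not called after siTTF-1 and lay 2.35 kb, centre to centre, from the second of these. All 3 H441 peaks stood near the end of their lists, at 95.5% of the siControl list and at 94.4% and 94.5% of the siTTF-1 list. No TTF-1 peak lay in the window, and 38.0% of windows of this length over the genome held one at 0 h.

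HMGA2 had the most Smad3 peaks of the 7 after TTF-1 depletion. Its window held 6 Smad3 peaks in siControl cells, 8 after siTTF-1, 13 TTF-1 peaks at 0 h and 11 at 1.5 h, and no Smad4 or A549 peak. Of the 6 siControl peaks, 5 were called again (83.3%, 35.9 to 99.6), against 80.8% of the whole list. A TTF-1 1.5 h peak also overlapped 5 of the 6, against 82.2% of the whole list. The exceptions differed. The site at 64632651 to 64633299 had no TTF-1 peak at either time and was called in both Smad3 lists, as number 6194 and number 2789. The site at 64621651 to 64621999 lay inside a TTF-1 peak at both times (number 2373 and number 1502) and was called only in siControl cells, as number 7463.

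The leading HMGA2 site was at 64638401 to 64638949, which both Smad3 lists gave with the same borders. It was number 1957 in siControl cells and number 3053 after siTTF-1, and TTF-1 there was number 796 at 0 h. Its TTF-1 peak at 1.5 h was within the first 2.58% of that list. The lowest siTTF-1 number in the window, 2789, belonged to the site without TTF-1. At 64505801 to 64507449 the siControl peak was 1649 bp wide, the widest Smad3 peak in any of the windows, and the overlapping siTTF-1 peak was 649 bp (64506751 to 64507399). The TTF-1 peak at 1.5 h had the same borders as the narrower Smad3 peak, and that at 0 h lay inside them, from 64506851 to 64507399. Smad3 was gained at 3 HMGA2 positions: 64572151 to 64572799 (number 5685), 64608301 to 64608699 (number 12496) and 64641201 to 64641649 (number 9634). Their centres lay 9.62, 1.52 and 2.72 kb from the nearest TTF-1 centre.

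ZEB1 carried 3 Smad3 peaks in each H441 condition, but not the same 3. The site at 31719651 to 31720199 had Smad3 in both conditions and TTF-1 at both times. It was number 3144 of 8941 in siControl cells and number 12213 of 14145 after siTTF-1, where the peak was narrower, 349 bp from 31719851 to 31720199. The site at 31682401 to 31682999 had both Smad3 peaks (number 8295 and number 6836) and TTF-1 at 0 h only, as number 29165. At 31688901 to 31689349 Smad3 was called only in siControl cells (number 7980), within TTF-1 peaks number 3421 at 0 h and number 3136 at 1.5 h. Smad3 was gained at 31644501 to 31644899 (number 10363), 38.1 kb from the nearest TTF-1 centre. The window also held 3 sites with TTF-1 at both times and no Smad3.

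The 250 bases before the gene start were searched for motifs in the 3 members that the RefSeq promoter table of GRCh38.p14 holds, ZEB1, ZEB2 and VIM. SNAI1, SNAI2, HMGA2 and CDH1 were not in the table. ZEB1 has 7 starts there, and the first in the direction of transcription was used. These sequences are shown because ZEB1 is itself an E-box reader and VIM has Smad3 peaks in both lines. Their coordinates are on another build and cannot be set against the hg18 peaks. ZEB1 is chr10:31318167-31318416 and VIM chr10:17227991-17228240, both on the plus strand of GRCh38.p14, 5′ to 3′, with motif matches in capitals.
ZEB1: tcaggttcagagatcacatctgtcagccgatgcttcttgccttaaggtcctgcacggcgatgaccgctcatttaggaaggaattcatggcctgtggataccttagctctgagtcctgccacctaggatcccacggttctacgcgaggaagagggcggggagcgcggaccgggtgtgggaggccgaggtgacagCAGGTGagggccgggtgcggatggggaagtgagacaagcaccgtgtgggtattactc
VIM: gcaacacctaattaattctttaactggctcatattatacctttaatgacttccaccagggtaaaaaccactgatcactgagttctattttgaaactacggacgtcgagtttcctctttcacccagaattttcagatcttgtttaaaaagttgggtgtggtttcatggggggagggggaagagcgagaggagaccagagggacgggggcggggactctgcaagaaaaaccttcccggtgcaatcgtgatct
The capitals in the ZEB1 sequence are an E-box, CACCTG read on the other strand, which starts at base -57 from the gene start. This motif was in 17.5% of the 35116 sequences of the same length in the table. The other motifs searched on both strands were CAGAC (a Smad site, in 38.0% of the sequences), the Smad palindrome GTCTAGAC (0.182%), CAAGTG (9.50%) and CACTCAAG (0.598%) for TTF-1, and TGAGTCA (4.20%) for AP-1. None of these letters, nor the E-box, were found in the window before VIM or ZEB2, and only the E-box before ZEB1.

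ZEB2 had no Smad3 peak in siControl cells and 1 after siTTF-1. This gained peak, 849 bp at 144831851 to 144832699 (number 6378), was as wide as any siTTF-1 Smad3 peak in the windows. It held the only Smad4 peak of the windows, 349 bp at 144832101 to 144832449, number 1109 of 1605. The nearest Smad4 siTTF-1 peak outside the window was 5185 kb away. TTF-1 was called at 4 other positions of ZEB2 at 0 h and at 3 of these at 1.5 h, with no Smad3 in either list. The nearest TTF-1 centre was 7.83 kb from the Smad peaks and the nearest siControl Smad3 centre 261 kb.

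SNAI1 had 1 Smad3 peak in siControl cells and 3 after siTTF-1. The shared site, at 48019951 to 48020299 in siControl cells, was number 3656 there and number 2700 after siTTF-1. It was also the only TTF-1 site of the window, as number 26359 at 0 h and number 16732 at 1.5 h. Both gained SNAI1 peaks lacked TTF-1: 48026601 to 48026999 (number 6576) lay 6.70 kb and 48037201 to 48037749 (number 12544) 17.4 kb from the TTF-1 centre.

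SNAI2 had a single peak in the 7 lists, a gained Smad3 peak of 499 bp at 49974451 to 49974949, number 9266. The nearest TTF-1 centre was 84.9 kb away and the nearest siControl Smad3 centre 84.6 kb.

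Across the 7 genes, 14 of the 18 siControl Smad3 peaks were called again after siTTF-1 (77.8%, 52.4 to 93.6). The share over the whole siControl list was 80.8%, inside this interval. Of the 24 siTTF-1 peaks, 10 were gained (41.7%, 22.1 to 63.4), against 49.1% of the whole list. The gained share was 25% (4 of 16) when each list was shortened to its first 8000 peaks, against 33.7% of the siTTF-1 list shortened in the same way. Gained peaks were spread over 6 of the genes: 3 at HMGA2, 2 each at SNAI1 and VIM, and 1 each at SNAI2, ZEB1 and ZEB2. CDH1 had none of its 6 (0%, 0 to 45.9), an interval that ends below the whole-list share, although CDH1 was singled out after its values were seen.

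TTF-1 overlap in the windows was near that of the whole lists at full length, and above it in shortened lists. TTF-1 1.5 h peaks were at 15 of the 18 siControl Smad3 peaks (83.3%, 58.6 to 96.4), against 82.2% of the whole list. They were at 12 of the 24 siTTF-1 peaks (50%, 29.1 to 70.9), against 54.1%. With each list shortened to its first 8000 peaks, the siControl share was 73.3% (11 of 15, 44.9 to 92.2) in the windows and 52.9% over the list, and the siTTF-1 share was 50% (8 of 16, 24.7 to 75.3) against 34.4%. Within the first 50% of each list, the siControl share was 90.9% (10 of 11, 58.7 to 99.8) against 73.8%, and the siTTF-1 share 60% (9 of 15, 32.3 to 83.7) against 43.9%. The interval includes the share of the list in each of these 4 cases. Where the factors met, their centres were 25 bp apart at the median in either condition, against 50 bp for both whole lists. Peak borders lie in steps of 50 bp, so these medians differ by the smallest step that centres can take. None of the 10 gained peaks had a TTF-1 peak at either time (0%, 0 to 30.8). Over the whole list 39.6% of the gained peaks had one at 0 h or 1.5 h, which lies above this interval. At 1.5 h alone the share was 26.4%, which lies within it. The TTF-1 share at gained peaks was not planned, and the share at either time was not taken under other settings. Counted against the 1.5 h list alone, the number in the windows rose above 0 under some alternatives. When centres had to lie within 200 bp, 1 of 11 gained peaks had a TTF-1 1.5 h peak (9.09%, 0.230 to 41.3). Within the first 50% of each list, 1 of 6 had one (16.7%, 0.421 to 64.1). The share over all gained peaks was not taken under these rules, so neither value can be set against the list. Of the 4 lost peaks, the 3 at CDH1, HMGA2 and ZEB1 had TTF-1 at both times and the 1 at VIM had none. For TTF-1 at 1.5 h alone, the share at lost peaks was 3 of 4 in the windows (75%, 19.4 to 99.4), against 88.5% of all lost peaks.

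**Figure D3:**
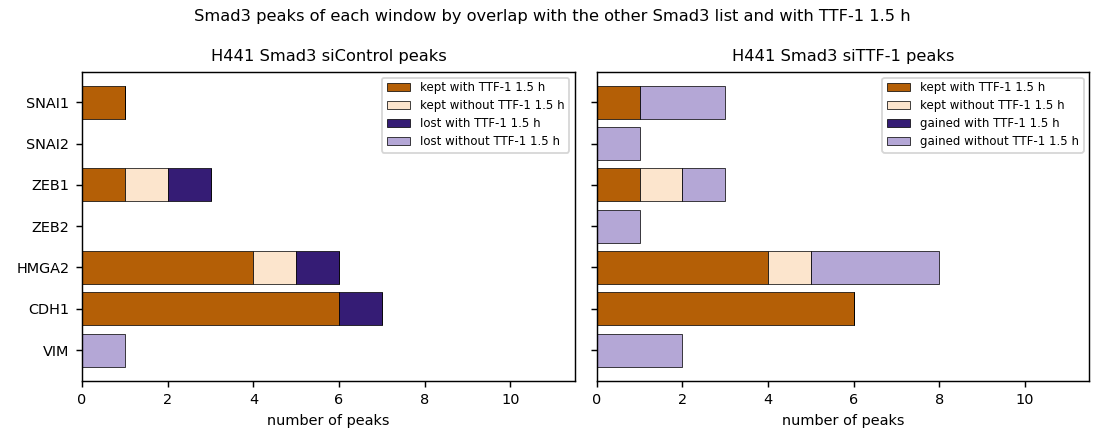
Number of Smad3 peaks in each window, siControl list on the left and siTTF-1 list on the right, coloured by whether the other Smad3 list has an overlapping peak and whether TTF-1 1.5 h does. The gained part of the siTTF-1 bars is without TTF-1 at each of the 6 genes that have it, and the CDH1 bar is made of kept peaks with TTF-1 alone.

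TTF-1 peaks of the windows were called again at 1.5 h in 28 of 40 cases (70.0%, 53.5 to 83.4), against 65.3% of the whole 0 h list. Of the 30 peaks at 1.5 h, 29 had been called at 0 h, against 95.8% of that list. The exception was an HMGA2 peak of 249 bp at 64627751 to 64627999. Smad3 siControl peaks were at 15 of the 30 TTF-1 1.5 h peaks (50%, 31.3 to 68.7), against 34.3% of the whole list. CDH1 had 7 of its 10, HMGA2 5 of 11, ZEB1 2 of 5, SNAI1 its only one and ZEB2 none of 3.

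Smad4 and A549 peaks were few at these genes, and few in all, with 1605 in the Smad4 siTTF-1 list and 2535 in the A549 list. Their density in the windows was 1.70 times that of the whole list for Smad4 siTTF-1 and 1.08 times for A549, each from 1 peak. The Smad4 and A549 lists were called at false discovery rate limits of 10% and 5%, against 1% for the other lists. List lengths are therefore not comparable between them. A Smad4 siTTF-1 peak was at 1 of the 24 siTTF-1 Smad3 peaks (4.17%, 0.105 to 21.1), against 9.06% of the whole list, and an A549 Smad3 peak was at 1 of 24, against 10.3%. Both of these were gained peaks, at ZEB2 and VIM. Among the 10 gained peaks each thus made 10.0% (0.253 to 44.5), against 5.54% for Smad4 and 5.92% for A549 over all gained peaks. With 1 peak each, these shares cannot be told apart from those of the lists.

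When overlapping peaks of all lists were merged, the windows held 53 sites. Smad and TTF-1 met at 16 of them (30.2%, against 28.2% of 37950 sites over the genome), 25 had TTF-1 alone (47.2%, against 55.4%) and 12 had a Smad peak alone (22.6%, against 16.5%). Both Smad3 lists and both TTF-1 lists shared 12 sites (22.6%, against 14.7%), 6 at CDH1, 4 at HMGA2 and 1 each at SNAI1 and ZEB1. The 12 sites with a Smad peak alone lay at every gene except CDH1, which had none among its 16 sites. HMGA2 had 4 of 18, VIM 3 of 3, SNAI1 2 of 3, and SNAI2, ZEB1 and ZEB2 1 each.

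The order of shared sites was compared among peaks with a single partner in the other list, ranked within these pairs so that both lists have the same length. Over the 7013 Smad3 pairs, the rank after siTTF-1 minus that in siControl cells had a median of -0.04 percentage points and quartiles of -15.6 and 15.2. The 14 pairs of the windows had a median of -2.0 points, 7 standing later and 7 earlier after siTTF-1. The largest move was at ZEB1, where the site at 31719651 to 31720199 went from 40.5% to 94.7% of the pairs. Of all Smad3 pairs, 2.52% moved back as far or farther. The HMGA2 site at 64548401 to 64548899 went from 30.5% to 73.8%, and the CDH1 site at 67338351 to 67338799 from 33.0% to 70.6%. In the other direction, the HMGA2 site without TTF-1 went from 74.5% to 35.1%, a move that 6.82% of all pairs equalled or exceeded.

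TTF-1 order moved less. Over 19815 TTF-1 pairs the quartiles of the rank at 1.5 h minus that at 0 h were -8.48 and 8.85 points. The 27 pairs of the windows had a median of -0.69 points, with 12 standing later at 1.5 h. The largest move was that of the CDH1 peak beside the leading site (67346751 to 67347349), from 61.1% to 97.6%, and 1.68% of all pairs moved back as far or farther. The leading CDH1 peak stayed at the head, at 0.373% and 0.631% of the pairs.

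**Figure D4:**
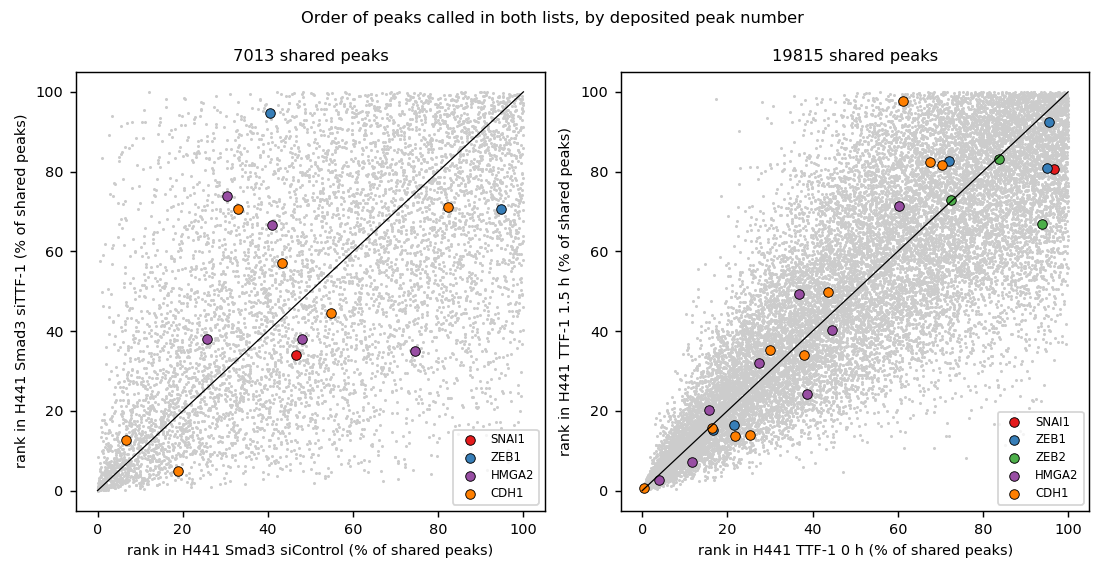
Rank of each shared peak in the first list (x axis) and the second list (y axis), in percent of the shared peaks, for Smad3 siControl and siTTF-1 (left) and TTF-1 0 h and 1.5 h (right); grey points are all shared peaks, coloured points those of the windows, and the line marks equal rank. Smad3 points scatter widely about the line, with ZEB1 at 40.5% and 94.7% farthest above it, and the leading CDH1 peak lies at the origin of the TTF-1 panel.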

How the data were processed

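Called peaks of 7 ChIP-seq libraries were used, 1 per condition. The 3 input DNA samples were not analysed here. The deposited lists give position, peak number and a score, which was 1000 for every deposited peak and was not used. Peaks were called at false discovery rate limits of 1% (Smad3 and TTF-1 in H441), 5% (A549) and 10% (Smad4), per the labels, and positions are on hg18 according to the submitters' processing notes. The names of the aligner and the peak caller were not given in the sources used here. Peak numbers run from 1 to the length of each called list. Starts were converted to count from 1, and 1 track line was skipped. Peaks were called on single libraries, so no replicates exist.

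Peaks sharing at least 1 bp counted as overlapping, a rule that recovered the authors' 3 deposited subset lists in full. The authors' split of siTTF-1 Smad3 peaks, 8847 with TTF-1 and 5298 without, was recovered with the TTF-1 0 h list. The main TTF-1 shares given here use the 1.5 h list. Kept, lost and gained refer to such overlap between the 2 Smad3 lists of H441. Densities over the genome use each chromosome up to the last peak in any list (3029 Mb in all). The genes, windows and lists were chosen with earlier results of these data known. All 7 genes are described; single peaks were named by a rule: lost, gained, Smad4 and A549 peaks, the site in most lists and the lowest peak numbers of each window. Other peaks named, such as those with large moves in rank, were chosen after their values were seen. Planned counts at further genes of the pathway were not run, since no annotation of hg18 was used. Alternatives were other overlap rules, shorter lists, other window sizes and the other TTF-1 list. Overlap counts were tested on the lists in place and shifted, where 30 of 30 equalled those of bedtools 2.31.1. Python 3.11.15, NumPy 2.4.6, SciPy 1.17.1 and matplotlib 3.10.9 were used.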

Additional observations from a re-analysis of the deposited data

How the results depend on the processing

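Of 66 values under alternatives, 61 stayed within the interval of the reported share or within 1.5 times the reported count or density ratio. These limits are wide, because the shares rest on few peaks, so staying within them is weak evidence of stability. In lists of 8000 peaks, a gained share of 25% beside 41.7% counted as staying. So did a TTF-1 0 h density ratio of 5.12 beside 3.51. The TTF-1 share at gained peaks was not planned, and its alternatives were chosen after seeing the data. The share of TTF-1 0 h peaks called again at 1.5 h was 93.3% when lists were shortened to their first 8000 peaks, where the whole list gave 83.7%. The number of Smad4 siTTF-1 peaks in the windows was 0 within the first 50% of the list, 0 in windows trimmed by 20 kb and 3 in windows widened by 50 kb. The number of A549 peaks was 0 within the first 50% of that list. Lists of equal length hold fewer peaks, and other windows hold other positions. No paired analysis was possible because each condition has 1 library and no result comes from a test across samples. The depth of the libraries is unknown, so no limit can be set for peaks that were not called.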

Other observations

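Within 50 kb outside the windows lay 18 further merged sites. Of those with Smad peaks, 3 are described here, chosen after their values were seen. Others with Smad3 lay at SNAI1, ZEB2 and CDH1. The CDH1 site (67256751 to 67257449) was in both H441 Smad3 lists and both TTF-1 lists. At ZEB1, 37.4 kb before the window (31571551 to 31572599), both H441 Smad3 lists and the Smad4 siTTF-1 list met without TTF-1. This site was number 34 of the Smad4 list, number 379 of the Smad3 siTTF-1 list and number 3542 of the siControl list. At SNAI1, 9.85 kb after the window (48079851 to 48080649), Smad3 number 5405 after siTTF-1 met Smad4 number 147, with no siControl Smad3 and no TTF-1 peak. At VIM, 5.35 kb before the window (17263701 to 17264649), TTF-1 number 1653 at 0 h and number 2693 at 1.5 h met Smad3 number 6595 of siControl cells, which had no siTTF-1 partner. In gene order by RefSeq (GRCh38.p14), the coding neighbours on the side of the 3 described sites are ZNF438 before ZEB1, PEDS1-UBE2V1 after SNAI1 and TRDMT1 before VIM. To which gene any of these sites belongs was not tested.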
